A study of Mus musculus with 12 samples.

Results

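The 10 genes described here are Jak2, Stat5a, Stat5b, Cish, Socs1, Socs2, Socs3, Pim1, Pim2 and Osm, members of the JAK-STAT5 pathway and of its negative feedback. They were taken by symbol from a deposited table of 56748 mouse genes. Each symbol had 1 row, and all 10 were among the 14794 genes that passed the filter on low counts. The 12 RNA-seq libraries, 3 in each of 4 groups, came from Ba/F3, a pro-B cell line of the mouse whose growth normally depends on the cytokine IL-3. Every group carried NRAS G12D, an activated Ras, and every group was kept without IL-3: cells were sorted into IL-3-free medium on day 0, given fresh medium on day 2 and harvested on day 3. The control group carried ZsGreen, a green fluorescent protein, and the others carried wild-type ETV6 (ETV6 WT), the mutant P214L or the double mutant I209S P214L, each with ZsGreen behind an IRES. ETV6 is an ETS-family transcriptional repressor. Per the title and design text of the study, P214L creates a nuclear export sequence, I209S breaks that sequence, and the double mutant was made to ask whether it acts like the wild-type protein. No group with IL-3 was analysed here, so no comparison shows the effect of the cytokine. The labels name neither clones nor separate cultures, so p-values measure only the spread between these libraries, which may be technical.

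Cytokine receptors without a kinase of their own bind Janus kinases such as Jak2, which phosphorylate the receptor and the transcription factors Stat5a and Stat5b. Phosphorylated STAT5 enters the nucleus and binds a palindromic DNA element, and in blood cells stimulated with IL-3 its textbook targets include Cish, the Socs genes, Pim1, Pim2 and Osm. CISH and the SOCS proteins bind receptors or JAKs and dampen the signal that induced them, whereas Pim1 and Pim2 are serine/threonine kinases that favour survival and growth, and Osm encodes the secreted cytokine oncostatin M. RNA levels, measured here, do not report phosphorylation.

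The STAT5 element TTCNNNGAA, which reads the same on both strands, was searched in RefSeq promoter windows of 300 bases, 250 before and 50 after the start of a transcript, on GRCm38.p6, an older build than that of the counts. There were 11 windows for 8 of the 10 genes, with none for Socs2 and Osm. Of all 32851 windows, 8.3% held the element and 0.457% held at least 2 copies. Among the windows of these genes, that of Cish held 2 copies and that of Socs3 held 1. The Cish copies began at the start of the transcript and 11 bases after it, and the Socs3 copy 154 bases before the start. The stricter form TTCCNGGAA, in which each arm also spells the ETS core GGAA, was in 1.15% of all windows and, among these genes, in that of Cish. The longer ETS element CCGGAAGT, searched on both strands, was in 3.89% of all windows and in none of the 11. These are letter matches and not measured binding. The stretches with matches are shown because Cish and Socs3 are the feedback genes whose levels differed between groups; capitals mark TTCNNNGAA, and each sequence runs 5′ to 3′ on the strand of its gene, plus for Cish at chr9:107296589-107296682 and minus for Socs3 at chr11:117969467-117969566.
Cish: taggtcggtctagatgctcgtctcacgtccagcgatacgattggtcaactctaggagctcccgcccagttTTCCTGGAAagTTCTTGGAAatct
Socs3: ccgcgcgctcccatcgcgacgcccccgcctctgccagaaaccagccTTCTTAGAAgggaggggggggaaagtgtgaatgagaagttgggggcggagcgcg
The first Cish copy, TTCCTGGAA, is at chr9:107296659-107296667 and the second, TTCTTGGAA, at chr9:107296670-107296678. The Socs3 copy, TTCTTAGAA, is at chr11:117969512-117969520.

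The libraries held between 14301683 and 18607595 counts. On the second principal component, with 14.2% of the variance, ZsGreen 1 lay at 70.7, ETV6 WT 1 at 22.4 and I209S P214L 1 at 21.2. The other 9 libraries lay below 0. The same 3 libraries had the lowest shares of counts on 18S ribosomal RNA, 2.92%, 1.58% and 1.35%, beside 3.58% to 5.90% in the other 9. The part of this share in the results was not tested. Calls of the 10 genes that rest on ZsGreen 1 are given with and without it. Etv6 itself averaged 81.7 CPM (a count scaled to library size, with TMM factors) in ZsGreen, 109 in ETV6 WT, 103 in P214L and 99.1 in I209S P214L, but the counts do not separate an introduced from the endogenous transcript, so they do not check the labels. Of 12 B-lineage markers, Vpreb2, Igll1, Rag1 and Dntt had no count in any library and 2, Cd79a and Cd79b, passed the filter, so the pro-B label is not borne out by its defining markers. Markers of other blood lineages differed between groups: the summed level of 10 neutrophil and monocyte genes, with Ly6g at 0 throughout, was 36.4 to 44.0 CPM in ZsGreen, 4.64 to 6.84 in ETV6 WT, 109 to 151 in P214L and 3.14 to 5.77 in I209S P214L. That of 7 erythroid genes was 155 to 166, 297 to 395, 139 to 186 and 298 to 437 CPM in the same order, a sum carried by Hba-a1, which averaged 35.1 CPM in ZsGreen and 235 in ETV6 WT. With ETV6 WT and with I209S P214L 2 of these 7 genes rose and 3, Gata1, Klf1 and Epb42, fell. That of 9 mast cell and basophil genes was 15.9 to 21.3, 50.4 to 53.0, 21.4 to 26.8 and 54.1 to 60.4 CPM, and was carried by Mitf, at 6.87 CPM in ZsGreen and 34.6 in ETV6 WT, and Cma1, at 2.94 and 13.6. Both rose with ETV6 WT and I209S P214L, whereas Ms4a2 fell in both and Hdc fell with ETV6 WT. The summed level of 6 megakaryocyte genes was 993 to 1057, 744 to 923, 827 to 890 and 630 to 726 CPM. It was carried by Itga2b, at 900 to 978 CPM in the ZsGreen libraries and 701 to 880 in those of ETV6 WT. With ETV6 WT 1 of these 6 genes rose and 3 fell, and 3 fell with P214L and with I209S P214L. Pf4 lay at 16.4 to 29.8 CPM in ZsGreen and 2.69 to 3.13 in ETV6 WT, and Vwf at 0 to 0.541 and 1.25 to 2.02. The 7 T-lineage genes, with Cd8a at 0, summed to 1.12 to 4.16 CPM, and the 6 fibroblast genes, with Col1a2, Col3a1, Pdgfra and Pdgfrb at 0, to at most 0.508 CPM. In bulk RNA fewer cells of a type and less RNA per cell cannot be told apart, and the part of these markers in the results on the 10 genes was not tested.

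Levels of different genes are comparable only per length. Over the 12 libraries Pim1 had the highest mean of the 10, at 34.9 ± 9.33 CPM per kb of gene model (SD), followed by Jak2 at 28.2 ± 3.46, Stat5b at 18.1 ± 1.46, Stat5a at 10.5 ± 1.30 and Osm at 7.41 ± 1.23. The feedback genes lay lower, with Socs2 at 3.95 ± 0.613, Socs3 at 2.89 ± 1.46, Socs1 at 1.73 ± 0.433 and Cish at 1.53 ± 0.546 CPM per kb, and Pim2 stood among them at 1.68 ± 0.399. Neighbours from Socs2 to Cish, and Pim1 and Jak2, differed by less than the larger of their SDs. The order of Pim1 and Jak2 differed between groups: per kb Pim1 was above Jak2 in ZsGreen (44.4 against 24.5 CPM) and P214L (42.6 against 26.1 CPM) and below it in ETV6 WT (25.6 against 31.4 CPM) and I209S P214L (27.1 against 31.0 CPM). In each of the 4 groups Jak2, Stat5a and Stat5b had higher mean levels per length than any CISH or SOCS gene.

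**Figure D1:**
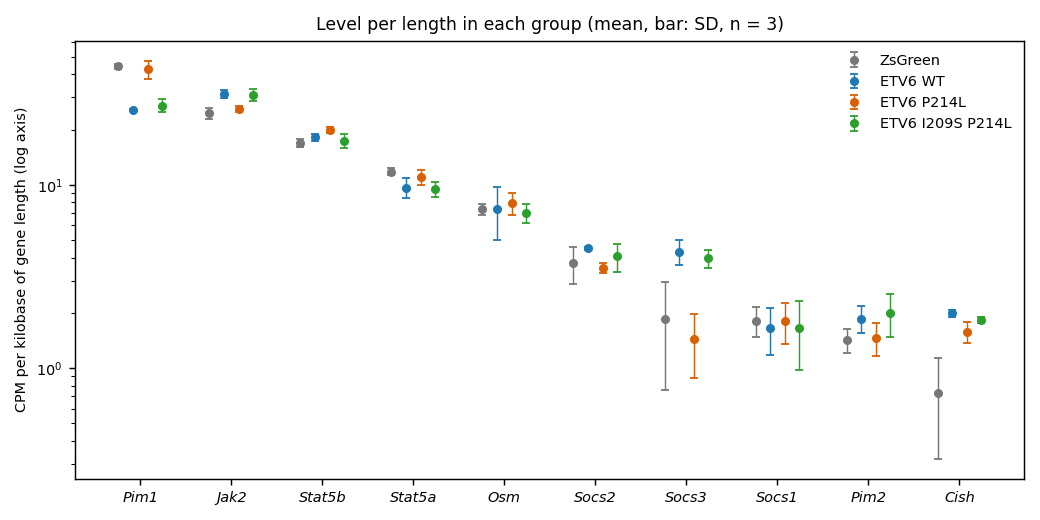
Level per gene length (CPM per kb, log axis) of the 10 genes, ordered by the mean over the 12 libraries; points are group means, coloured by group, and bars the SD of 3 libraries. Pim1 and Jak2 lie at the top, Pim1 above Jak2 in ZsGreen and P214L and below it in the other 2 groups, and Socs2, Socs3, Socs1, Pim2 and Cish at the bottom.

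Wild-type ETV6 changed 5 of the 10 genes against ZsGreen: Jak2, Cish and Socs3 rose and Pim1 and Stat5a fell. P214L changed 1 of them, Cish, which rose. With I209S P214L, Jak2, Cish and Socs3 rose and Pim1 and Stat5a fell. No gene of the 10 was called between I209S P214L and ETV6 WT. All 3 comparisons with ZsGreen use its same 3 libraries, so they are not independent of each other. Of all genes tested, 37.7% were called with ETV6 WT against ZsGreen, 19.5% higher and 18.2% lower. The shares called were 5.08% with P214L, 3.47% higher and 1.61% lower, and 41.5% with I209S P214L, 20.8% higher and 20.7% lower. The 5 of 10 genes called with ETV6 WT and with I209S P214L are therefore near the share of all genes. The libraries of the groups did not overlap in 5 of the 10 genes for ETV6 WT, 2 for P214L and 5 for I209S P214L, beside 46.2%, 25.7% and 47.8% of all genes. The median log2 fold change of the 10 genes was 0.19 for ETV6 WT, 0.01 for P214L and 0.09 for the double mutant, beside 0.03, 0.01 and 0.03 over all genes tested.

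**Figure D2:**
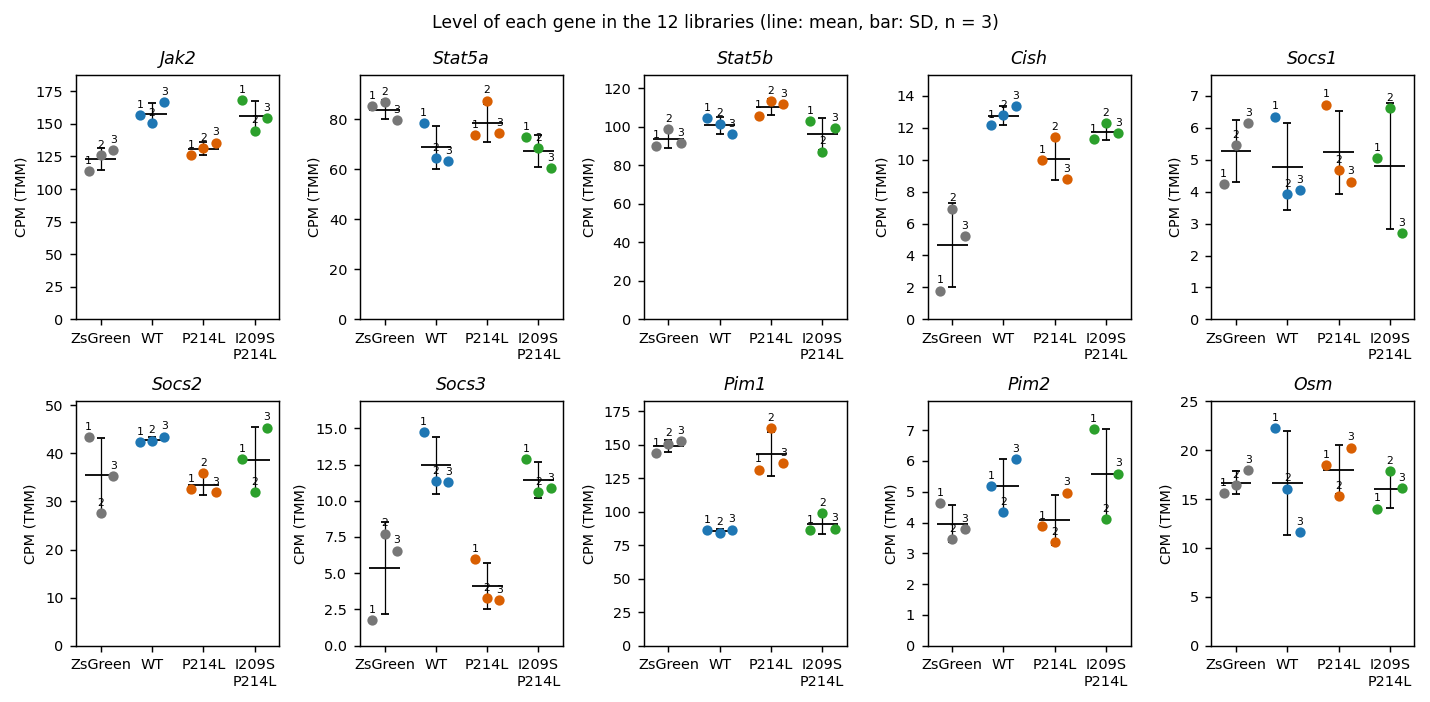
CPM of each of the 10 genes in every library, with 1 panel per gene, numbered points for the 3 libraries of each group, a line at the group mean and a bar for the SD. Pim1 lies between 84.5 and 99.2 CPM in the ETV6 WT and I209S P214L libraries and between 132 and 162 CPM in the ZsGreen and P214L libraries.

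Jak2 (ENSMUSG00000024789, chromosome 19, 29229228 to 29290480 on the plus strand, mm39), the kinase bound to the IL-3 and erythropoietin receptors, stood at 114, 126 and 129.9 CPM in the ZsGreen libraries and at 156, 151 and 167 CPM in ETV6 WT. It stood at 126, 132 and 136 CPM in P214L and at 168, 145 and 155 CPM in I209S P214L. Every ETV6 WT and I209S P214L library lay above every ZsGreen and P214L library. Jak2 was 1.28-fold higher with ETV6 WT than with ZsGreen (log2 fold change 0.36 ± 0.07 SE, edgeR adjusted p = 0.000882), and with I209S P214L the log2 fold change was 0.34 ± 0.07 (adjusted p = 0.00126). With P214L the difference from ZsGreen was 0.09 with a 95% interval of -0.07 to 0.25 (adjusted p = 0.588).

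Stat5a (ENSMUSG00000004043, chromosome 11, 100750177 to 100775995, plus strand) encodes 1 of the 2 closely related STAT5 proteins. Its levels were 85.3, 86.9 and 79.8 CPM in ZsGreen, 78.7, 64.5 and 63.2 CPM in ETV6 WT, 73.9, 87.5 and 74.6 CPM in P214L, and 72.9, 68.4 and 60.5 CPM in I209S P214L. All libraries of ETV6 WT and of I209S P214L lay below all ZsGreen libraries, ETV6 WT 1 by the narrowest margin, while P214L overlapped ZsGreen. Stat5a fell by 0.29 ± 0.10 on the log2 scale with ETV6 WT (adjusted p = 0.0264) and by 0.32 ± 0.10 with I209S P214L (adjusted p = 0.0139). The first call was lost without ZsGreen 1, ZsGreen 2, ETV6 WT 2 or ETV6 WT 3 (highest adjusted p = 0.116), and the second without I209S P214L 3 (adjusted p = 0.0722). Stat5a overlaps 72 bases of Stat3, which lies on the other strand, and whether the libraries kept strand is not known.

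Stat5b (ENSMUSG00000020919, chromosome 11, 100671557 to 100741550, minus strand), the other STAT5 gene, had means of 93.5 ± 4.50 CPM in ZsGreen, 101 ± 4.27 in ETV6 WT, 110.2 ± 3.97 in P214L and 96.4 ± 8.28 in I209S P214L (SD, n = 3). The 3 P214L libraries, at 106, 113 and 112 CPM, lay above all other libraries. No comparison passed the threshold: P214L against ZsGreen gave a log2 fold change of 0.24 with a 95% interval of 0.08 to 0.40 and an adjusted p of 0.0789 by edgeR, and I209S P214L against P214L gave -0.19 with an interval of -0.35 to -0.03 and an adjusted p of 0.0587. With DESeq2, and in edgeR with only the 2 groups compared, P214L against ZsGreen passed (lowest adjusted p = 0.0326). I209S P214L against P214L passed in edgeR with the filter on mean CPM, without ETV6 WT 1 and without I209S P214L 1. That comparison also passed without the first libraries of ZsGreen, ETV6 WT and I209S P214L together (edgeR adjusted p = 0.0118).

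Cish (ENSMUSG00000032578, chromosome 9, 107173225 to 107179983, plus strand), whose promoter window holds both copies of the element shown above, encodes an SH2 protein that binds activated cytokine receptors. It was at 1.81, 6.93 and 5.23 CPM in ZsGreen, from 32, 104 and 87 counts. It was at 12.1, 12.8 and 13.3 CPM in ETV6 WT, at 9.98, 11.4 and 8.76 CPM in P214L and at 11.3, 12.3 and 11.7 CPM in I209S P214L. The ZsGreen libraries lay below all 9 others, and ZsGreen 1 lay far below the rest of its group.

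Cish was the 1 gene of the 10 called higher in all 3 ETV6 groups against ZsGreen. It was 2.76-fold higher under ETV6 WT (log2 fold change 1.47 ± 0.29, adjusted p = 0.000627), 2.18-fold higher with P214L (1.12 ± 0.30, adjusted p = 0.0346) and 2.54-fold higher with I209S P214L (1.34 ± 0.29, adjusted p = 0.00123). Without ZsGreen 1 these folds were 2.07, 1.65 and 1.92 and all 3 remained called. The call with P214L was lost without ZsGreen 3 or without any 1 of the P214L libraries, and with only the 2 groups in the fit, with a highest adjusted p of 0.133. P214L lay below ETV6 WT in every library, but the log2 fold change of -0.34, with a 95% interval of -0.93 to 0.24, did not pass (adjusted p = 0.415).

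Socs3 (ENSMUSG00000053113, chromosome 11, 117856905 to 117860873, minus strand), whose product inhibits JAKs bound to receptors, was at 1.75, 7.73 and 6.55 CPM in ZsGreen and at 5.96, 3.31 and 3.14 CPM in P214L. It was at 14.7, 11.3 and 11.3 CPM in ETV6 WT and at 12.9, 10.6 and 10.9 CPM in I209S P214L. ZsGreen and P214L overlapped, and both lay wholly below the other 2 groups. Socs3 was 2.34-fold higher with ETV6 WT than with ZsGreen (1.23 ± 0.36, adjusted p = 0.0108) and 2.16-fold higher with I209S P214L (1.11 ± 0.36, adjusted p = 0.0185). With P214L the log2 fold change was -0.37 with a wide interval, -1.16 to 0.42 (adjusted p = 0.674). Without ZsGreen 1 the folds with ETV6 WT and I209S P214L were 1.72 (adjusted p = 0.0211) and 1.59 (adjusted p = 0.0425). Without the first libraries of ZsGreen, ETV6 WT and I209S P214L together, the log2 fold changes were 0.65 and 0.58 and neither was called (adjusted p = 0.0562 and 0.0887).

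**Figure D3:**
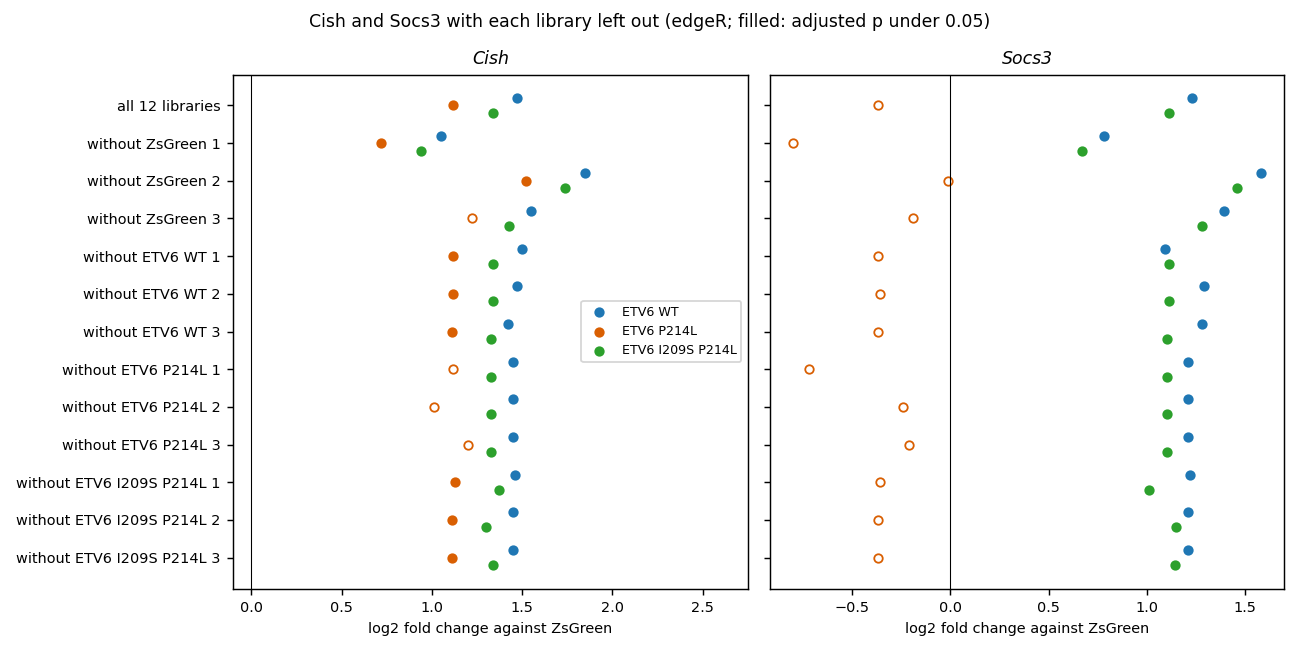
Log2 fold change of Cish and of Socs3 against ZsGreen (x axis) in edgeR with all 12 libraries and with each library left out in turn (y axis), for the 3 ETV6 groups; filled circles had an adjusted p under 0.05. Leaving out ZsGreen 1 gives the smallest values for ETV6 WT and I209S P214L in both genes, and Cish with P214L is open without ZsGreen 3 or any P214L library.

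Socs1 (ENSMUSG00000038037, chromosome 16, 10600104 to 10603400, minus strand) and Socs2 (ENSMUSG00000020027, chromosome 10, 95221224 to 95253042, minus strand) encode the other 2 inhibitors of this family among the 10 genes. Socs1, an inhibitor of JAK kinase activity, lay between 2.70 and 6.72 CPM, from 44 to 104 counts a library, with all groups overlapping, and no comparison was called. Its log2 fold change with ETV6 WT was -0.15 (adjusted p = 0.762). Socs2, known as an inhibitor of growth hormone signalling, had means of 35.4 ± 7.89 CPM in ZsGreen, 42.8 ± 0.611 in ETV6 WT, 33.5 ± 2.15 in P214L and 38.7 ± 6.71 in I209S P214L. ZsGreen 1 had the highest of the ZsGreen values, 43.4 CPM beside 27.6 and 35.3. Socs2 with ETV6 WT against ZsGreen was not called (0.27 ± 0.14, adjusted p = 0.148), and without ZsGreen 1 it was (0.43, adjusted p = 0.0244). So the feedback genes were not called as a group: Cish and Socs3 rose with ETV6 WT and I209S P214L, and Socs1 and Socs2 were not called in any comparison of the edgeR fit to all 12 libraries with the filter on low counts.

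Pim1 (ENSMUSG00000024014, chromosome 17, 29709727 to 29715086, plus strand) was at 144, 151 and 153 CPM in ZsGreen and at 86.6, 84.5 and 86.7 CPM in ETV6 WT. It was at 132, 162 and 136 CPM in P214L and at 86.2, 99.2 and 87.5 CPM in I209S P214L. The ETV6 WT and I209S P214L libraries all lay far below the ZsGreen and P214L libraries, and each of those pairs of groups overlapped. Pim1 was 1.74-fold lower with ETV6 WT than with ZsGreen (log2 fold change -0.80 ± 0.08, adjusted p = 4.95e-07) and 1.64-fold lower with I209S P214L (-0.71 ± 0.08, adjusted p = 1.48e-06). With P214L the difference was -0.06, with a 95% interval of -0.23 to 0.11 (adjusted p = 0.779). Pim1 thus fell in the 2 groups in which Cish and Socs3 rose.

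Pim2 (ENSMUSG00000031155, chromosome X, 7744501 to 7749671, plus strand), its paralog, was much less abundant, with means of 3.96 ± 0.601 CPM in ZsGreen, 5.19 ± 0.865 in ETV6 WT, 4.07 ± 0.818 in P214L and 5.58 ± 1.46 in I209S P214L. All groups overlapped and no comparison was called; against ZsGreen the log2 fold change was 0.39 with ETV6 WT (adjusted p = 0.286) and 0.50 for the double mutant (adjusted p = 0.16). Osm (ENSMUSG00000058755, chromosome 11, 4186420 to 4191026, plus strand) had means of 16.7 ± 1.16 CPM in ZsGreen, 16.6 ± 5.31 in ETV6 WT, 18.0 ± 2.51 in P214L and 16.0 ± 1.92 in I209S P214L, with log2 fold changes against ZsGreen between -0.06 and 0.11 and no call. The ETV6 WT libraries spread from 11.6 to 22.2 CPM and covered all others. The receptor genes through which oncostatin M signals, Osmr, Il6st and Lifr, had no count in any library, which allows up to 0.0151 CPM for a floor of 3 counts over the 12 libraries; counting error only is covered, and these genes were singled out after their values were seen.

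**Figure D4:**
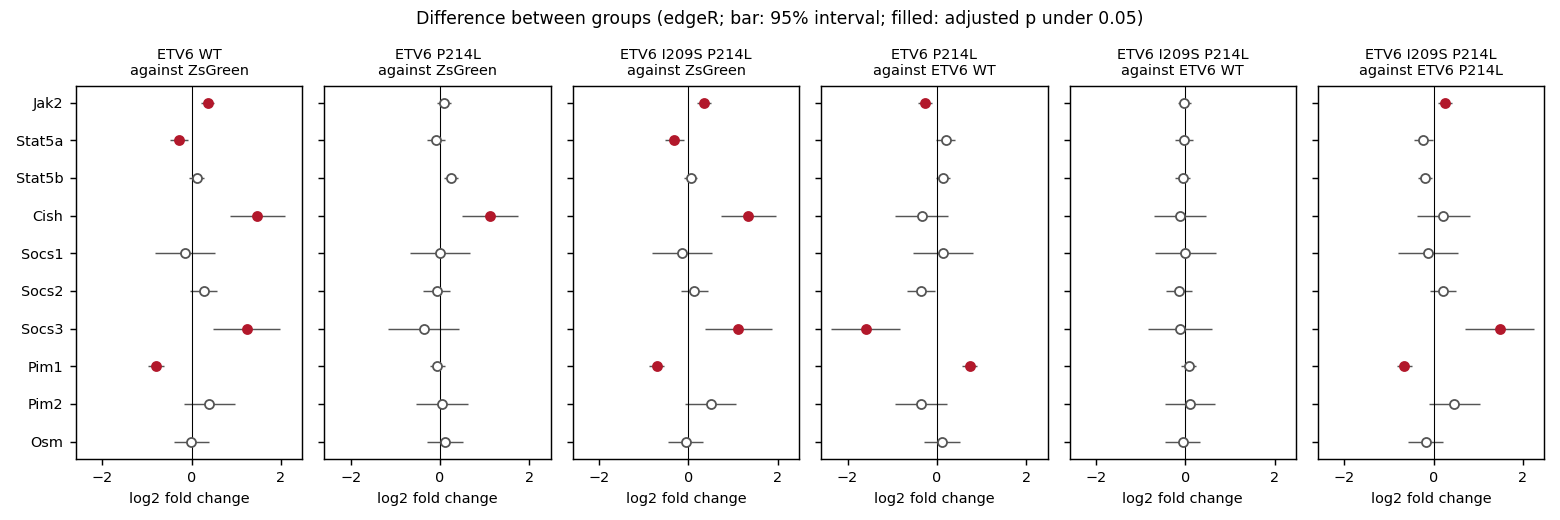
Log2 fold change of the 10 genes in each of the 6 pairwise comparisons, with the 95% interval of the edgeR fit as a line; filled points had an adjusted p under 0.05. The 10 intervals for I209S P214L against ETV6 WT all cross 0.

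Comparing the ETV6 proteins with one another, P214L differed from ETV6 WT in 3 of the 10 genes: Pim1 was higher and Socs3 and Jak2 were lower. Of all genes tested, 29.2% were called in this comparison, 14.6% higher and 14.6% lower. Pim1 was 1.67-fold higher with P214L (0.74 ± 0.08, adjusted p = 1.83e-06), Socs3 was 3.02-fold lower (-1.59 ± 0.37, adjusted p = 0.0027) and Jak2 differed by -0.27 ± 0.07 (adjusted p = 0.0106). The groups did not overlap in 6 of the 10 genes, beside 45.4% of all genes. Socs2, also without overlap, gave -0.36 ± 0.14 and was not called (adjusted p = 0.0724). It was called with no filter on low counts (adjusted p = 0.016), with only the 2 groups compared (0.00868), without ZsGreen 1 (0.0421) and without ZsGreen 2 (0.0416). The Jak2 call was lost without ETV6 WT 3 or P214L 1 (highest adjusted p = 0.0657).

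Adding I209S to P214L raised Socs3 and Jak2 and lowered Pim1. These were the calls among the 10 genes, with 33% of all genes called, 15.9% higher and 17.1% lower. Socs3 was 2.78-fold higher (1.48 ± 0.37, adjusted p = 0.00429), Jak2 was higher by 0.25 ± 0.07 on the log2 scale (adjusted p = 0.0148) and Pim1 was 1.58-fold lower (-0.66 ± 0.08, adjusted p = 5.88e-06). Jak2 was not called without P214L 1 or I209S P214L 1 (highest adjusted p = 0.0874). The groups did not overlap in 5 of the 10 genes, beside 48.2% of all genes. This comparison shares no library with ETV6 WT against ZsGreen, where Socs3 and Jak2 also rose and Pim1 also fell. Both come from the same fit with a shared estimate of the spread, so they are not separate tests. The deviations of ETV6 WT 1 and I209S P214L 1 from their group means were also correlated (r = 0.53). Cish, at 0.22 (adjusted p = 0.611), was not called.

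I209S P214L against ETV6 WT gave no call among the 10 genes by edgeR, DESeq2 or limma-voom, and 0 of the 10 had an unadjusted p under 0.05 with any of the 3. Of all genes tested, 0.0338% were called, which is 5 genes, 0.0135% higher and 0.0203% lower. The libraries of these groups overlapped in all 10 genes, beside 8.33% of all genes without overlap, and their log2 fold changes lay between -0.14 and 0.11. The precision differed between genes: the 95% interval was -0.17 to 0.14 for Jak2 and -0.09 to 0.25 for Pim1, but -0.70 to 0.46 for Cish, -0.84 to 0.60 for Socs3 and -0.67 to 0.68 for Socs1. Differences inside those intervals are not excluded with 3 libraries a group.

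In the test of any difference among the 4 groups, 5 of the 10 genes were called, beside 41% of all genes: Pim1 (adjusted p = 1.32e-07), Jak2 (0.00098), Socs3 (0.00236), Cish (0.0026) and Stat5a (0.0308). For each of these, the 3 protein-coding genes whose log2 CPM followed it most closely were found among 10976 candidates over the 12 libraries. These correlations are descriptions, since all pairs share libraries and group differences. They were not computed without ZsGreen 1, which had the lowest Cish and Socs3 of the 12 libraries and may weigh on their correlations. For Pim1 they were Pwp1 (r = 0.988), Nasp (0.979) and Ebna1bp2 (0.979), of which Pwp1 had means of 51.7, 37.0, 50.5 and 38.0 CPM in ZsGreen, ETV6 WT, P214L and I209S P214L. For Jak2 they were Exoc2, Clint1 and Nme7 (r = 0.959 to 0.964), and for Stat5a Slc35a4, Eef1g and Galk1 (r = 0.95 to 0.969). For Cish they were Lrrc24, Scin and Fam219a (r = 0.973 to 0.986), Lrrc24 having means of 2.61, 6.15, 5.31 and 6.31 CPM. For Socs3 they were Mrgpre, Gpr146 and Wipf2 (r = 0.948 to 0.982), and Mrgpre had means of 1.95, 4.16, 1.81 and 4.32 CPM.

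The rest of the pathway was read from 5 lists, in which the named genes are among the 4 of each list with the smallest p for any difference, unless said otherwise. The counts of calls in these lists stand beside the shares of all genes given above: 37.7% with ETV6 WT (19.5% higher, 18.2% lower), 5.08% with P214L and 41.5% with I209S P214L (20.8% higher, 20.7% lower). Among the receptors, 10 of 19 passed the filter; 6 rose and 1 fell with ETV6 WT, 2 rose and 1 fell with P214L, and 5 rose and 1 fell with I209S P214L. Csf2rb, a signalling chain common to the receptors for IL-3, IL-5 and GM-CSF, averaged 343 CPM in ZsGreen, 2027 in ETV6 WT, 671 in P214L and 2158 in I209S P214L. Its log2 fold changes against ZsGreen were 2.56, 0.97 and 2.65, all called (highest adjusted p = 1.82e-07). Csf2rb2, its near-identical copy and part of the mouse IL-3 receptor, gave 2.64, 0.79 and 2.70, and reads may be shared between the copies. Il2rg, the common gamma chain, went the other way, at 31.3 CPM in ZsGreen and 31.2 in P214L beside 9.35 in ETV6 WT and 7.12 in I209S P214L. On the log2 scale it fell by 1.74 in ETV6 WT libraries (adjusted p = 2.38e-08) and by 2.13 in those of the double mutant (adjusted p = 2.22e-09).

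Of the 14 cytokines, 4 passed the filter, and Il3 itself had no count in any library. Lif, which signals through STAT3, rose in all 3 ETV6 groups, from 6.31 ± 1.22 CPM in ZsGreen to 15.1 ± 0.879 with ETV6 WT (adjusted p = 4.42e-06) and 17.6 ± 1.48 with I209S P214L (5.39e-07), and by 0.93 on the log2 scale with P214L (0.00137). Il15 was 25.0 CPM in ZsGreen and rose to 51.8 with ETV6 WT (adjusted p = 1.53e-06) and 51.2 with I209S P214L (1.6e-06), while P214L, at 29.4, was not called (0.338). Il6 and Il4 were not called against ZsGreen in any group. Of the 8 other JAKs and STATs, 7 passed the filter, and 6 rose and 1 fell both with ETV6 WT and with I209S P214L, with none called with P214L, where 5.08% of all genes were called. Stat2, of the interferon pathway, had means of 38.3, 73.6, 38.9 and 74.5 CPM in ZsGreen, ETV6 WT, P214L and I209S P214L. Jak3 rose by 0.58 and 0.51, Stat3 by 0.37 and 0.38 and Tyk2 by 0.48 and 0.58 on the log2 scale with ETV6 WT and I209S P214L. The gene that fell was Jak1, at 284, 236, 290 and 239 CPM, which is named for being the exception.

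All 16 other inhibitors passed the filter; 6 rose with ETV6 WT, 2 with P214L, and 6 rose and 1 fell with I209S P214L. The 6 and 7 of 16 called with ETV6 WT and I209S P214L are near the 37.7% and 41.5% of all genes. Ptprc, the phosphatase CD45, was 331 CPM in ZsGreen, 690 in ETV6 WT, 460.1 in P214L and 729 in I209S P214L and was called in all 3. Pias3, an inhibitor of STAT3, had log2 fold changes of 0.92, 0.10 and 0.90, that with P214L not called. Cbl, a ubiquitin ligase, rose by 0.52, 0.27 and 0.55 in the 3 groups, and Cblb rose by 0.48 with ETV6 WT and 0.30 with I209S P214L. The inhibitor that fell with I209S P214L, named for that count, was Sh2b3 (log2 fold change -0.23, adjusted p = 0.0162), which encodes the adaptor LNK. Of 11 other STAT5 targets, 7 passed the filter: 1 rose and 5 fell with ETV6 WT, 1 fell with P214L and 5 fell with I209S P214L, beside 18.2%, 1.61% and 20.7% of all genes called lower. Id1, an inhibitor of helix-loop-helix factors, averaged 57.2 CPM in ZsGreen, 18.1 in ETV6 WT, 53.5 in P214L and 17.2 in I209S P214L (adjusted p = 9.58e-10, 0.668 and 4.58e-10 against ZsGreen). Myc had means of 188, 112, 176 and 106 CPM in the same order, with log2 fold changes of -0.75, -0.09 and -0.82. The cyclin genes Ccnd2 and Ccnd3 gave -0.38 and -0.29 with ETV6 WT and -0.38 and -0.48 with I209S P214L, all called. The 1 target that rose with ETV6 WT was Bcl2 (0.18), and the 1 that fell with P214L was Bcl2l1 (-0.38, adjusted p = 0.028), both antiapoptotic genes named here for those counts. The fall of Bcl2l1 was not particular to P214L. Its means were 77.1 CPM in ZsGreen, 54.6 in ETV6 WT, 59.4 in P214L and 52.5 in I209S P214L.

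With ETV6 WT against ZsGreen the median log2 fold change was 0.57 over the 4 cytokines tested, 0.44 over the 10 receptors, 0.48 over the 7 JAKs and STATs, 0.21 over the 16 inhibitors and -0.38 over the 7 targets, beside 0.03 over all genes tested. With P214L the same medians were 0.21, 0.10, 0.03, -0.01 and -0.09, beside 0.01. With I209S P214L they were 0.56, 0.45, 0.40, 0.16 and -0.48, beside 0.03. No gene of any of the 5 lists was called between I209S P214L and ETV6 WT.

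**Figure D5:**
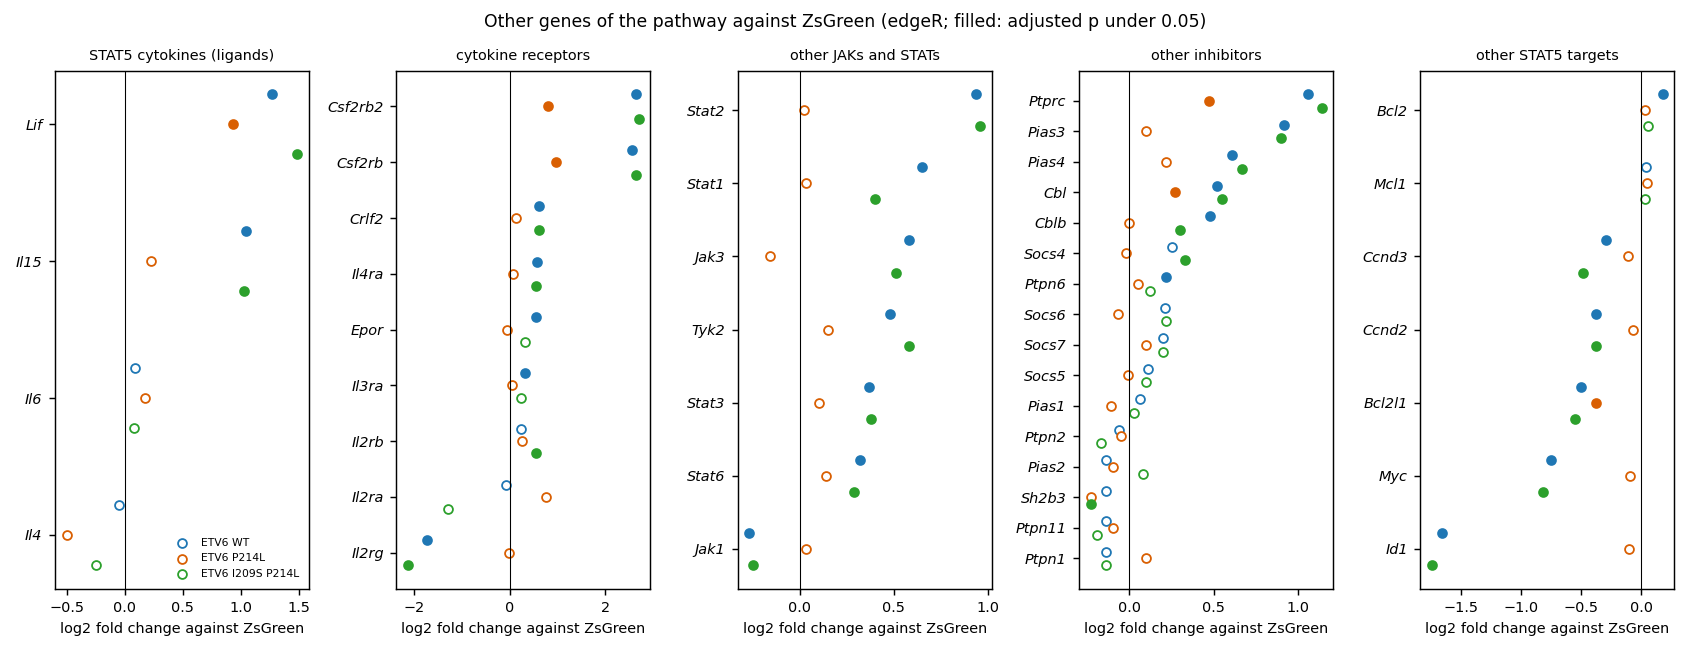
Log2 fold change against ZsGreen of tested genes of the 5 other pathway lists, with 1 panel per list colours for the 3 ETV6 groups and filled points for an adjusted p under 0.05. With ETV6 WT and I209S P214L most called receptors, JAKs and STATs lie above 0 and most called targets below it. The filled P214L points are Lif, Csf2rb, Csf2rb2, Ptprc, Cbl and Bcl2l1.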

How the data were processed

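The 10 genes and the pathway and marker lists were chosen with earlier results of these data known. Per the labels' protocols, messenger RNA was captured on poly-T beads; the text describes both directional and non-directional libraries, so strandedness is not known. Per the submitters' processing notes, the authors used HISAT2 2.0.5, featureCounts 1.5.0-p3 and the build mm39; the annotation release is not given in the sources used here. The deposited table holds raw read counts per gene, gene length in bases (the other unit used), FPKM in 12 columns, not used here, and the authors' comparisons, not used here. All rows name a gene. Of the 56748 genes, 30009 had no count.

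Tests on the counts used edgeR 4.0.16 under R 4.3.3: filterByExpr, TMM, and a quasi-likelihood fit with 1 mean per group on all 12 libraries. P-values were adjusted by Benjamini-Hochberg across the 14794 genes tested, and calls were made under 0.05. Intervals are 95%, from the SE and the t distribution. CPM are scaled by TMM, and correlations used log2 CPM with a prior count of 2. CPM with ± are the mean and SD of 3 libraries, and levels per kb with ± are the mean and SD of all 12 libraries. Log2 fold changes with ± are the estimate and its SE from the edgeR fit. The fit was run on simulated data in which far fewer genes differed than here, so that run does not show how reliable the calls are in these data. Named genes were all 10 members, the 4 genes per list with the smallest p for any difference, and the 3 genes most like each called member. Some genes of the lists are counted but not reported here by name or drawn. Alternatives were DESeq2 1.42.0, limma-voom (limma 3.58.1), relative log expression (RLE) factors in edgeR, no filter, a mean CPM of at least 1, only the 2 groups compared, a replicate block, each library left out, and the first libraries of ZsGreen, ETV6 WT and I209S P214L left out together.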

Additional observations from a re-analysis of the deposited data

How the results depend on the processing

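No log2 fold change called for the 10 genes changed sign under any alternative run. The number of the 10 genes called stayed within 1.5 times for every comparison other than P214L against ZsGreen and I209S P214L against P214L. P214L against ZsGreen had 1 call, Cish, and 2 with DESeq2, Cish and Stat5b; with a library left out it had 0 to 1. I209S P214L against P214L had 3 calls and had 5 without the first libraries of ZsGreen, ETV6 WT and I209S P214L, with Stat5a and Stat5b added; with a library left out it had 2 to 5, the 5 without ETV6 WT 1. With a library left out, ETV6 WT and I209S P214L against ZsGreen each had 4 to 5, P214L against ETV6 WT 2 to 4, I209S P214L against ETV6 WT 0 and any difference 4 to 6. Library numbers were not used to pair the samples in the main fit. Of 18 pairs of same-numbered libraries, 2 had correlated deviations over 0.1. Both were of ETV6 WT with I209S P214L, at r = 0.53 for number 1 and 0.25 for number 3, so these 2 groups may share structure by number. By mean correlation, 7 of 12 libraries went best with their own number. With only 3 numbers to choose from, some libraries would do so without any pairing. With a replicate block the calls numbered 5, 1 and 5 against ZsGreen, 3 for P214L against ETV6 WT, 0 for I209S P214L against ETV6 WT and 3 for I209S P214L against P214L. Over all genes, P214L against ZsGreen gave 751 calls and 1188 with DESeq2, and I209S P214L against ETV6 WT gave 5 and 22 with DESeq2. Low counts limit Cish, Socs1, Socs3 and Pim2 most. The fewest, 31 of Socs3, were in ZsGreen 1, which was not shallow, at 17876563 counts in all. ZsGreen 2 and 3 held 116 and 109 counts of Socs3, from totals of 15156449 and 16866473.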
